A study of Rattus norvegicus with 20 samples.

Results

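The genes described here are the cytosolic ribosomal proteins of the rat and their paralogues, measured in heart and kidney. They were taken from the deposited gene table as protein-coding genes whose symbol is that of a large-subunit (Rpl), small-subunit (Rps) or stalk (Rplp0, Rplp1, Rplp2) protein, with or without a paralogue ending such as l or l1. The rule found 104 loci with 79 symbols among the 30560 genes of the table. Of these, 67 are core loci, the longest locus with an intron for each symbol without a paralogue ending (35 of the large subunit, 29 of the small subunit and 3 of the stalk). A further 10 are paralogues with a symbol of their own (Rpl3l, Rpl7l1, Rpl10l, Rpl22l1, Rpl39l, Rps27l, Rplp0l1, Rps10l1, Rps18l1 and Rpl30l1). The other 27 are further loci, which carry the symbol of a core locus or are named Rpl30 or Rpl37, symbols with no locus that has an intron here. Among the 104 loci, 29 have a gene model without an intron, 4 of them paralogues and 25 of them further loci. 4 members had no fragment in any library. The set is not complete, since no member is named Rpl7, Rpl13a, Rpl27a, Rpl36, Rpl37a, Rpl41, Rps7 or Rps26.

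These proteins form the large and the small subunit of the ribosome together with ribosomal RNA, and their genes are active in nearly every cell, where they give some of the most abundant messenger RNAs. Their transcripts begin with a run of pyrimidines at the cap, the terminal oligopyrimidine (TOP) motif, through which the mTOR kinase controls how well they are translated. A few proteins have a paralogue made in a single tissue, of which Rpl3l, found in heart and skeletal muscle in place of Rpl3, is the best known. The heart makes and replaces contractile protein throughout life, and the kidney cortex consists mostly of proximal tubule, which reabsorbs solutes.

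Messenger RNA was sequenced from the left ventricle and the kidney cortex of 10 male rats, which the labels call wild type without naming the strain and the series' title calls hypertensive. All 10 rats had a blood pressure telemeter implanted at 8 weeks of age and then ate a diet of 4% NaCl for 3 weeks. Over those weeks a subcutaneous osmotic minipump gave 5 rats (RB035 to RB039) Maresin 1 (MaR1), a lipid mediator that cells make from docosahexaenoic acid, in doses that reached 1.3 µg/kg/day, and 5 rats (RB030 to RB034) the vehicle. Each rat gave 1 library per organ, so that the 4 groups (hearts of MaR1 rats, hearts of vehicle rats, kidneys of MaR1 rats, kidneys of vehicle rats) hold 5 animals each, and no group without the high-salt diet enters here. Levels are in FPKM, fragments per kilobase of gene scaled by the authors to a library size. That size, read back from the values, was not the number of fragments in genes. It averaged 2.23e+07 in hearts, where 2.51e+07 fragments fell in genes, and 2.81e+07 in kidneys, where 2.46e+07 did. It lay below the fragments in genes in every heart and above them in every kidney. Compared with scaling by those fragments, this raises heart levels against kidney levels. Fold changes are log2 differences of FPKM + 0.5 with their standard error, and adjusted p-values come from limma over all genes tested, with a threshold of 0.05.

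Between 19383232 and 30342034 fragments per library fell in genes, and members took 1.59 to 2.25% of them in hearts and 1.45 to 1.72% in kidneys. The organ labels matched the contents: 10 cardiomyocyte markers summed to 13766 to 23218 FPKM in hearts and at most 1.86 FPKM in kidneys, and 10 proximal tubule markers to 279 to 384 FPKM in hearts and 4037 to 7404 FPKM in kidneys. In 5 hearts (RB035 and RB038 with MaR1, RB031, RB033 and RB034 with vehicle) the atrial myosin light chain gene Myl7 stood at 150.9 to 783.5 FPKM, against 0.163 to 1.65 FPKM in the other 5 hearts. The 5 atrial markers together summed to 387 to 5487 FPKM in hearts of MaR1 rats and 510 to 10122 FPKM in hearts of vehicle rats. In 4 kidneys (RB036, RB038 and RB039 with MaR1, RB034 with vehicle) the urothelial gene Upk1a was above 1 FPKM, and the kidney of RB039 had 383 FPKM of adipocyte markers. Mitochondrially encoded transcripts made up 43.1 to 55.4% of all FPKM in hearts and 25.3 to 32.4% in kidneys, and rescaling each library to the same total (TPM) therefore lowers the other genes more in hearts. In bulk tissue, fewer cells of a type and less RNA per cell cannot be told apart.

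The sequences around the transcription start are described before any level is compared. RefSeq promoters of the GRCr8 assembly, 300 bases long with 250 before the annotated start and 50 from it, were matched for 60 of the 79 member symbols. Each line gives 40 bases in the gene's own direction, 25 before the start and 15 from it, and capitals mark the longest run of C and T that touches no other letter within the 25 bases from 10 before to 15 after the start. The lines begin with the paralogues that the results turn on, each followed by its core partner where it has one here, and end with core genes of the small subunit, the large subunit and the stalk.
Rpl3l: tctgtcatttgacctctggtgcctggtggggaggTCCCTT
Rpl3: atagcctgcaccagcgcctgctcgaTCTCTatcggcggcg
Rpl22l1: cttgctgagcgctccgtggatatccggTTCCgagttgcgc
Rpl22: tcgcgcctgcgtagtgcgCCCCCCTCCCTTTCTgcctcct
Rps27l: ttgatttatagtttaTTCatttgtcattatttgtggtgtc
Rps27: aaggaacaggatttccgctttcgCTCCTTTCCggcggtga
Rpl7l1: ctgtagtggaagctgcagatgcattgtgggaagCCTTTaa
Rps24: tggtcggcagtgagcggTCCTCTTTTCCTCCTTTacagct
Rps14: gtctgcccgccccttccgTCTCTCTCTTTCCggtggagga
Rpl10: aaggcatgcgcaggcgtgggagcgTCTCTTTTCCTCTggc
Rplp0: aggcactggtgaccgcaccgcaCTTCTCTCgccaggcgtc
These windows lie at chr10:14258421-14258460 (Rpl3l, plus strand), chr7:113507976-113508015 (Rpl3, minus strand), chr2:113683171-113683210 (Rpl22l1, plus strand), chr5:168117936-168117975 (Rpl22, plus strand), chr8:76443633-76443672 (Rps27l, plus strand), chr2:177964592-177964631 (Rps27, minus strand), chr9:21695693-21695732 (Rpl7l1, plus strand), chr16:96492-96531 (Rps24, plus strand), chr18:56498235-56498274 (Rps14, plus strand), chrX:157205825-157205864 (Rpl10, plus strand) and chr12:46718376-46718415 (Rplp0, minus strand).

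An unbroken run of 8 or more letters that are all C or T lay in this window in 32 of 55 promoters of core symbols (58.2%), in 0 of 5 promoters of paralogue symbols and in 2980 of all 33469 promoters (8.9%). With runs of 10 or more letters the counts were 27 core promoters (49.1%), 0 paralogue promoters and 3.71% of all promoters. With only 5 paralogue promoters, a count of 0 cannot be told apart from these shares of all promoters. The longest run had a median of 9 letters in core promoters and of 4 letters (2 to 6) in paralogue promoters, and all promoters had a median of 4. On the other strand, where such a run reads as A and G, runs of 8 or more letters were found in 1 core promoter (1.82%) and in 10.8% of all promoters. Rps24 had the longest run printed, 17 letters, while the run of Rpl3 had 5 letters, the shortest among the core genes printed. Core genes that are not printed had runs as short or shorter, such as Rps4x and Rps6 (5 letters), Rpsa (4) and Rplp2 (2). A short run therefore does not set Rpl3 apart from the core genes. The motif and the window were chosen after the sequences had been seen, annotated starts can lie some bases from the true cap, and a run of these letters is a description of the sequence only.

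The comparison of heart with kidney asked how the set differs between the organs, separately in MaR1 and vehicle rats, which share no library. The paralogue Rpl3l was the member that differed most. It had 61.5, 173, 139, 120.3 and 168 FPKM in the hearts of MaR1 rats RB035 to RB039 and 114, 142, 155, 65.7 and 97.3 FPKM in the hearts of vehicle rats RB030 to RB034, against 0 to 0.123 FPKM in the 10 kidneys. In counts these were 2570 to 6065 fragments per heart and 0 to 6 fragments per kidney, so the 2 organs lie far apart with no overlap. The log2 fold change was 7.89 ± 0.24 in MaR1 rats (adjusted p = 1.07e-10) and 7.72 ± 0.19 in vehicle rats (adjusted p = 4.69e-12). With so few kidney fragments its size depends on the pseudocount, and it was 6.93 with a pseudocount of 1 and 12.49 with voom on fragments in MaR1 rats, and 6.76 and 11.79 in vehicle rats. In the file's coordinates, for which no source used here names a genome build, Rpl3l (ENSRNOG00000014641) lies on chromosome 10 from 13753886 to 13764457 on the plus strand.

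Rpl3, the core partner that Rpl3l resembles and a protein near the peptidyl transferase centre, was the one core gene called lower in hearts on the deposited scale. It had 192, 112, 121, 149.7 and 94.5 FPKM in the hearts of MaR1 rats RB035 to RB039 and 134, 116, 95.8, 156 and 132 FPKM in the hearts of vehicle rats RB030 to RB034. In kidneys it had 177, 167, 178, 178 and 169 FPKM in MaR1 rats and 174, 176, 169, 162 and 157 FPKM in vehicle rats. The kidneys were tightly grouped, the vehicle hearts all lay below the vehicle kidneys, and the heart of MaR1 rat RB035 lay above every kidney. The log2 fold change, heart over kidney, was -0.42 ± 0.16 in MaR1 rats (adjusted p = 0.0314) and -0.42 ± 0.12 in vehicle rats (adjusted p = 0.00571). With TPM it was -1.04 (adjusted p = 8.05e-04) and -1.07 (adjusted p = 1.67e-04), and with quantile scaling -0.65 (adjusted p = 0.00683) and -0.58 (adjusted p = 0.00256). In MaR1 rats the call was lost without RB036 (adjusted p = 0.0991), RB037 (0.108), RB038 (0.0535) or RB039 (0.0856), and it held without RB035 (adjusted p = 0.00293). Rpl3 (ENSRNOG00000016896) lies on chromosome 7 from 111621610 to 111636468 on the minus strand of the file's build.

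Rpl3l and Rpl3 together varied less from heart to heart than either did alone. Across the 10 hearts the coefficient of variation was 31.9% for Rpl3l, 22.8% for Rpl3 and 7.23% for their sum, which stayed between 221.8 and 285.0 FPKM. The sum averaged 266 ± 12.2 FPKM in hearts of MaR1 rats and 241 ± 14.98 FPKM in hearts of vehicle rats (SD, n = 5 each). In kidneys, where Rpl3l was near 0, the sum ran from 157.4 to 178.5 FPKM. The 3 hearts with the most Rpl3l (RB036, RB039 and RB032) had the 3 lowest values of Rpl3, and the 2 hearts with the least Rpl3l (RB035 and RB033) had the 2 highest. This describes 10 libraries, whose scaling the pair shares.

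Compared within each rat, the log2 difference of the sum, heart over kidney, was 0.45 to 0.77 with a median of 0.55, and the median over the 67 core genes was 0.44 to 0.82 in the same rats. Rpl3 alone ranked lowest of the 67 core genes in 9 of 10 rats and next to lowest in RB035, the one rat in which it was higher in the heart (0.12). Expressed as a share of the pair, Rpl3l made up 24.3 to 64.0% of the FPKM in hearts of MaR1 rats (mean 49.4 ± 15.9%, SD, n = 5) and 29.6 to 61.7% in hearts of vehicle rats (47.0 ± 12.3%, n = 5), against at most 0.0689% in kidneys. The share does not depend on how libraries were scaled.

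The pair was also set beside Myl7, with ranges that overlap in each measure. In the 5 hearts with Myl7 above 10 FPKM Rpl3l stood at 61.5 to 142 FPKM and Rpl3 at 116 to 192 FPKM, and in the 5 hearts with Myl7 under 10 FPKM Rpl3l stood at 114 to 173 FPKM and Rpl3 at 94.5 to 134 FPKM. The share of Rpl3l was 24.3 to 55.0% in those with high Myl7 and 46.0 to 64.0% in those with low Myl7. Their sum was 221.8 to 270.0 FPKM and 247 to 285 FPKM. Cardiomyocyte markers summed to 13766 to 21959 FPKM in the hearts with high Myl7 and 20063 to 23218 FPKM in those with low Myl7. The part of the atrial transcripts in the levels of Rpl3l and Rpl3 was not tested. A fit without the 5 rats that gave the hearts with high Myl7, a choice made after seeing the data, had few libraries. It held 6 libraries of MaR1 rats and 4 libraries of vehicle rats, hearts and kidneys together. The log2 fold change of Rpl3 was then -0.66 in MaR1 rats (adjusted p = 0.00114) and -0.60 in vehicle rats (adjusted p = 0.0483).

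**Figure D1:**
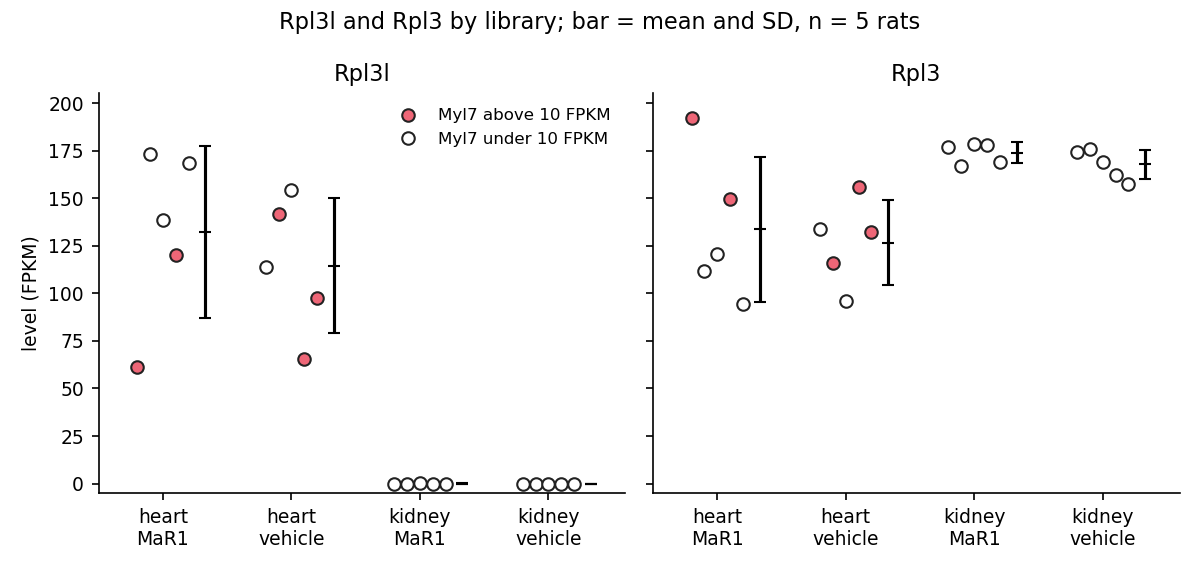
Level of Rpl3l (left) and Rpl3 (right) in FPKM for each library, by organ and treatment, with the mean and SD of 5 rats beside the points and hearts with Myl7 above 10 FPKM in red. Rpl3l lies between 61.5 and 173 FPKM in hearts and at most at 0.123 FPKM in kidneys, and Rpl3 is spread over 94.5 to 192 FPKM in hearts but only 157 to 178 FPKM in kidneys.

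Among the other 9 paralogues, 3 (Rpl39l, Rplp0l1 and Rpl30l1) stayed under the filter of 1 FPKM and 6 were tested. Rpl10l, which in mice replaces the X-linked Rpl10 during the formation of sperm, had 6.03, 11.8, 10.4, 12.3 and 6.39 FPKM in hearts of MaR1 rats and 8.81, 9.34, 9.27, 6.43 and 8.94 FPKM in hearts of vehicle rats. In kidneys it ran from 0.352 to 1.95 FPKM in MaR1 rats and from 0.0377 to 2.80 FPKM in vehicle rats, so that hearts and kidneys did not overlap. Its log2 fold change was 2.51 ± 0.30 in MaR1 rats (adjusted p = 1.34e-05) and 2.68 ± 0.39 in vehicle rats (adjusted p = 4.96e-05). It remained a small part of its pair, 1.43 ± 0.47% of the Rpl10l and Rpl10 FPKM in hearts of MaR1 rats and 1.35 ± 0.17% in hearts of vehicle rats, against 0.317 and 0.296% in kidneys of MaR1 and vehicle rats (means, n = 5). Rpl10l is a single exon in the table, and no source used here tells how fragments that fit both it and Rpl10 were divided.

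Rpl7l1, a relative of Rpl7 that in human cells takes part in making the large subunit, was the one paralogue called lower in hearts on the deposited scale, while with TPM Rpl22l1 was also called lower in MaR1 rats (adjusted p = 0.0332) and Rps18l1 in vehicle rats (adjusted p = 0.00166), as was Rps27l in both. It had 27.4, 24.1, 23.1, 27.4 and 24.3 FPKM in hearts of MaR1 rats against 33.3, 32.8, 29.2, 33.4 and 34.1 FPKM in their kidneys, in the order RB035 to RB039. In vehicle rats RB030 to RB034 it had 25.2, 23.7, 23.8, 26.3 and 27.3 FPKM in hearts against 32.9, 35.3, 33.3, 29.7 and 34.4 FPKM in kidneys. Every heart lay below every kidney, a separation that 34.7% of all genes showed in this direction in each set of rats. It gave a log2 fold change of -0.36 ± 0.07 in MaR1 rats (adjusted p = 6.39e-04) and -0.39 ± 0.07 in vehicle rats (adjusted p = 3.21e-04).

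Rps27l, which p53 induces in human cells, did not pass the test between the organs on the deposited scale. It had 32.4, 23.6, 24.7, 31.2 and 22.9 FPKM in hearts of MaR1 rats and 33.2, 24.3, 23.2, 32.5 and 27.2 FPKM in hearts of vehicle rats, and 27.8 to 33.8 FPKM in the 10 kidneys. The log2 fold change was -0.18 ± 0.10 in MaR1 rats (adjusted p = 0.131) and -0.10 ± 0.11 in vehicle rats (adjusted p = 0.440). With TPM it was called lower in hearts, with log2 fold changes of -0.79 (adjusted p = 6.78e-04) and -0.74 (adjusted p = 0.00133). Its core partner Rps27 was higher in hearts by 0.89 ± 0.08 in MaR1 rats (adjusted p = 1.15e-06) and 0.77 ± 0.13 in vehicle rats (adjusted p = 1.21e-04), and gave 0.27 and 0.12 with TPM. The share of Rps27l in the pair was smaller in hearts, 9.28 ± 1.14% with MaR1 and 10.7 ± 2.47% with vehicle, against 17.6 ± 0.90% and 17.8 ± 1.29% in kidneys of MaR1 and vehicle rats (SD, n = 5), and the highest heart (14.8%) lay below the lowest kidney (16.2%).

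The share of Rpl22l1 in its pair was, in contrast, close in both organs. Rpl22l1, which in mice is made in larger amounts when Rpl22 is missing, averaged 41.4 ± 2.92 FPKM in hearts of MaR1 rats and 41.3 ± 3.34 FPKM in hearts of vehicle rats, against 31.1 ± 2.68 FPKM and 28.3 ± 3.605 FPKM in kidneys of MaR1 and vehicle rats (SD, n = 5). It was called higher in hearts by 0.41 ± 0.08 in MaR1 rats (adjusted p = 4.28e-04) and 0.54 ± 0.10 in vehicle rats (adjusted p = 2.81e-04), and the direction turned to -0.20 and -0.10 with TPM. Its share of the pair was 60.0 ± 2.5% and 61.6 ± 1.1% in hearts and 62.9 ± 2.3% and 61.7 ± 2.5% in kidneys, MaR1 before vehicle in each organ. Per length, Rpl22l1 was thus the more abundant member of its pair in all 4 groups.

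Rps10l1 and Rps18l1 have gene models without an intron and had lower levels than Rps10 and Rps18. In fragments not divided by length the gap was wider. The kidney of RB030, for example, had 1165 fragments of Rps10l1 against 3610 of Rps10, and 1151 of Rps18l1 against 8833 of Rps18. Rps10l1 averaged 118 ± 7.13 and 104 ± 5.74 FPKM in hearts of MaR1 and vehicle rats against 74.0 ± 5.08 and 68.9 ± 7.03 FPKM in their kidneys (SD, n = 5), with log2 fold changes of 0.67 ± 0.07 and 0.59 ± 0.08 (adjusted p = 3.68e-06 and 3.88e-05), the second of which turned to -0.06 with TPM. Rps18l1 averaged 78.2 ± 9.95 and 62.1 ± 6.05 FPKM in hearts and 59.7 ± 5.82 and 59.5 ± 8.77 FPKM in kidneys, with log2 fold changes of 0.38 ± 0.10 in MaR1 rats (adjusted p = 0.00489) and 0.07 ± 0.11 in vehicle rats (adjusted p = 0.566), which turned to -0.24 and -0.58 with TPM. The shares of Rps10l1 in its pair were 38.8 and 37.3% in hearts and 39.2 and 38.5% in kidneys, and those of Rps18l1 were 39.6 and 38.0% in hearts and 38.4 and 39.1% in kidneys. Both paralogues therefore took nearly the same share in every group. Copies alike in sequence can trade fragments, and how alike these are was not measured, so neither can be counted with certainty apart from its partner.

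The core genes were the most abundant members. All 67 reached a mean of 1 FPKM and 57 of them 100 FPKM over the 20 libraries. The median core gene had 263 FPKM in hearts of MaR1 rats and 241 FPKM in hearts of vehicle rats, against 161 and 149.9 FPKM in kidneys of MaR1 and vehicle rats. Rplp0, the base of the stalk that recruits translation factors, was the highest with 847 ± 47.5 and 767 ± 89.9 FPKM in hearts of MaR1 and vehicle rats and 527 ± 16.6 and 504 ± 27.8 FPKM in their kidneys (SD, n = 5). Rps15, a small-subunit protein of the head, followed with 753 ± 62.4 and 684 ± 51.4 FPKM in hearts and 475 ± 14.4 and 438 ± 52.7 FPKM in kidneys. Rpl35a was the lowest core locus, with 4.74 ± 0.70 and 4.27 ± 0.95 FPKM in hearts and 2.95 ± 0.47 and 2.76 ± 1.35 FPKM in kidneys. The next lowest, Rpl22, averaged 27.6 ± 2.06 and 25.8 ± 3.04 FPKM in hearts and 18.3 ± 0.90 and 17.5 ± 0.88 FPKM in kidneys, so Rpl35a stood well below every other core locus in both organs.

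Summed over the 67 core genes, levels were 17090 to 20624 FPKM in hearts of MaR1 rats and 16748 to 19309 FPKM in hearts of vehicle rats, against 11848 to 12708 FPKM and 10778 to 13111 FPKM in kidneys of MaR1 and vehicle rats. Hearts and kidneys did not overlap in this sum. As a share of all FPKM the same genes took 2.29 to 3.55% in hearts and 2.65 to 3.08% in kidneys, so that the ranges overlap once mitochondrially encoded transcripts enter the total. As a share of the FPKM outside the mitochondrial chromosome they took 4.95 to 6.53% in hearts and 3.69 to 4.34% in kidneys, again without overlap.

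**Figure D2:**
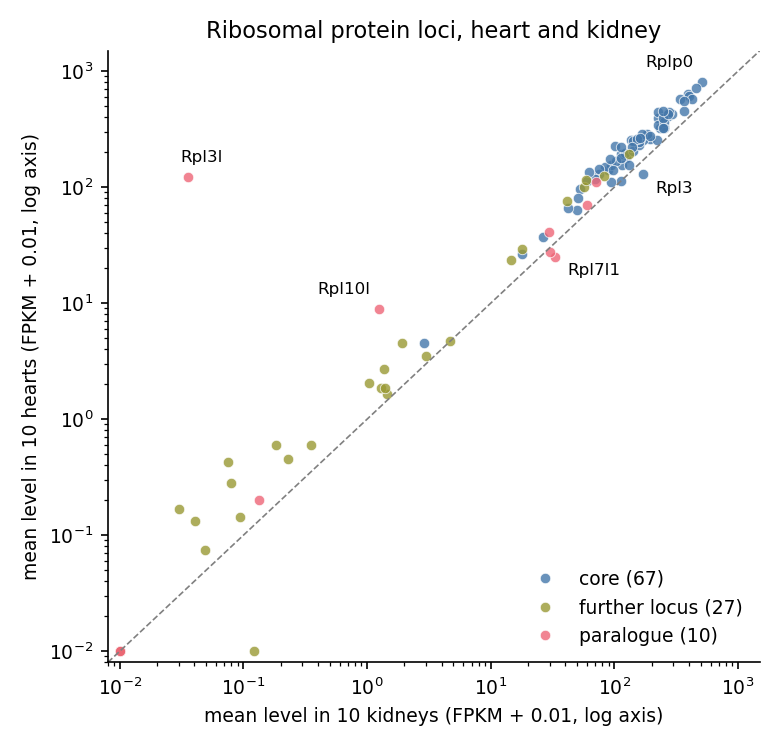
Mean level of each of the 104 loci over 10 hearts (y axis) and 10 kidneys (x axis), in FPKM + 0.01 on log axes, coloured by class, with the dashed line marking equal levels. Core genes lie in a band above the line on the deposited scale, Rpl3 lies below it, and Rpl3l and Rpl10l lie far above it. With TPM the band lies at the line, with a core median of 0.03 in MaR1 rats and -0.02 in vehicle rats.

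In MaR1 rats 63 of the 67 core genes were called higher in hearts and 1 lower on the deposited scale. Of the 89 members tested, 80 were called higher and 2 lower on that scale, and with TPM only 13 higher and 9 lower. In vehicle rats the core counts were again 63 higher and 1 lower. There, 78 of 89 members were called higher and 2 lower on the deposited scale, and with TPM 9 higher and 14 lower. Of all genes tested, 37.9% were called higher and 40.3% lower in MaR1 rats, and 37% higher and 40% lower in vehicle rats, so calls in themselves are common in this contrast. With TPM the genes called higher were 24.7% of all genes called in MaR1 rats and 23.7% in vehicle rats, instead of 48.4 and 48.1%. The median log2 fold change of core genes was 0.64 in MaR1 rats (-0.42 to 1.23) and 0.62 in vehicle rats (-0.42 to 1.31), against a median of -0.02 and -0.03 over all genes tested, and with TPM the median of all genes moved to -0.61 and -0.65.

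Relative to the median of all genes, the core median lay 0.67 higher in MaR1 rats and 0.65 higher in vehicle rats, and TPM leaves this difference nearly as it is by construction (0.65 and 0.63). With quantile scaling, which forces every library to the same distribution, it was 0.32 and 0.33. Hearts and kidneys did not overlap, with the heart higher, in 62 core genes in MaR1 rats and 58 in vehicle rats, where 32.1 and 31.2% of all genes did so. A log2 fold change above 0 was found in 66 of 67 core genes in MaR1 rats and 65 in vehicle rats, against 48.8 and 48.6% of all genes. The calls on the deposited scale named the same genes to a large extent: 62 core genes were called higher and 1 (Rpl3) lower in both sets of rats. Rps18 was called higher in MaR1 rats and not in vehicle rats, Rps27a in vehicle rats and not in MaR1 rats, and Rpl18 and Rpl29 in neither. With the rat as a block, which pairs heart and kidney of an animal, Rpl29 (adjusted p = 0.0344) and Rps27a (adjusted p = 0.0290) were called higher in MaR1 rats too. Within each rat, 60 to 67 of the 67 core genes were higher in the heart on the deposited scale.

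The core genes moved by similar amounts. The middle 50% of them lay between 0.54 and 0.77 in MaR1 rats and between 0.50 and 0.75 in vehicle rats, and 54 and 47 of 67 lay within 0.25 of their median. In MaR1 rats the median was 0.61 for the large subunit, 0.68 for the small subunit and 0.68 for the stalk, and in vehicle rats it was 0.58, 0.68 and 0.60. The subunits therefore lay close together, with 32 of 35 large-subunit, 28 of 29 small-subunit and 3 of 3 stalk genes called higher in each set of rats on the deposited scale. With TPM the same medians were 0.01, 0.06 and 0.06 in MaR1 rats and -0.07, 0.04 and -0.05 in vehicle rats.

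In vehicle rats, whose values chose the genes at the ends of the range, small-subunit genes held the top. In MaR1 rats the stalk gene Rplp2 (1.04) lay above Rps14 and Rps21, and the highest large-subunit gene (0.89) lay above Rps21. Rps24, a gene mutated in some patients with Diamond-Blackfan anaemia, had 151, 143, 132, 139 and 128 FPKM in hearts of MaR1 rats against 67.6, 60.8, 64.7, 64.7 and 69.5 FPKM in their kidneys. In vehicle rats it had 142, 136, 135, 135 and 121 FPKM in hearts against 60.9, 62.0, 59.5, 58.3 and 54.3 FPKM in kidneys. The lowest heart lay far above the highest kidney. Rps24 gave log2 fold changes of 1.08 ± 0.07 in MaR1 rats (adjusted p = 3.77e-08) and 1.17 ± 0.07 in vehicle rats (adjusted p = 1.17e-08), and 0.46 and 0.53 with TPM. Its promoter carries the run of 17 pyrimidines printed above. In vehicle rats Rpl29, with a run of 16 letters, gave 0.17, and Rplp2, with a run of 2, gave 0.89. Whether run length goes with the organ difference was not tested.

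Rps15a, Rps14 and Rps21, which are structural proteins of the small subunit, were also near the top in vehicle rats. Their log2 fold changes were 1.23 ± 0.08, 0.95 ± 0.10 and 0.83 ± 0.11 in MaR1 rats and 1.07 ± 0.10, 0.92 ± 0.07 and 0.98 ± 0.13 in vehicle rats, with adjusted p-values of at most 3.16e-05 in MaR1 rats and 1.94e-05 in vehicle rats. Rps15a averaged 237 ± 20.01 and 219 ± 25.2 FPKM in hearts of MaR1 and vehicle rats, against 100.5 ± 7.23 and 104 ± 8.74 FPKM in their kidneys (SD, n = 5). These genes were thus 1.78 to 2.35 times higher in hearts, where the median core gene was 1.56 times higher in MaR1 rats and 1.54 times in vehicle rats. None of these 3 genes changed sign with TPM.

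At the low end, besides Rpl3, stood Rpl18, Rps18, Rpl29, Rpl5 and Rpl27. Rpl18, a large-subunit protein, averaged 118 ± 10.01 and 107 ± 14.2 FPKM in hearts of MaR1 and vehicle rats and 112.5 ± 3.38 and 112.5 ± 12.3 FPKM in their kidneys (SD, n = 5), with log2 fold changes of 0.06 ± 0.07 (adjusted p = 0.419) and -0.07 ± 0.11 (adjusted p = 0.552). Rpl29 gave 0.26 ± 0.13 (adjusted p = 0.0862) and 0.17 ± 0.14 (adjusted p = 0.263), and Rps18 0.31 ± 0.07 (adjusted p = 0.00242) and 0.13 ± 0.09 (adjusted p = 0.184), in MaR1 and vehicle rats, and both turned negative with TPM. Rpl5, which together with Rpl11 binds 5S RNA and can bind Mdm2, was higher in hearts by 0.27 ± 0.07 (adjusted p = 0.00392) and 0.22 ± 0.07 (adjusted p = 0.0133), and gave -0.35 and -0.43 with TPM. Rpl27 was higher by 0.35 ± 0.07 (adjusted p = 5.47e-04) and 0.26 ± 0.09 (adjusted p = 0.0205), and gave -0.27 and -0.40 with TPM. Under TPM, Rps18, Rpl29, Rpl5 and Rpl27 were called lower in hearts in both sets of rats. Their adjusted p-values were at most 0.0186 in MaR1 rats and 0.0134 in vehicle rats. Rpl18 gave -0.56 with TPM in MaR1 rats and was called lower there (adjusted p = 5.82e-04). In vehicle rats, where it was -0.07 on the deposited scale, it stayed below 0 with TPM. On the deposited scale these genes lay nearest to equal levels in both organs, and relative to all genes with TPM Rpl5 and Rpl27 were still above the median.

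The stalk proteins were called higher in hearts in both sets of rats on the deposited scale, with Rplp1 below 0 under TPM in both and Rplp0 in vehicle rats. The log2 fold changes in MaR1 and vehicle rats were 0.68 ± 0.07 and 0.60 ± 0.10 for Rplp0, 0.53 ± 0.09 and 0.52 ± 0.11 for Rplp1, and 1.04 ± 0.09 and 0.89 ± 0.10 for Rplp2. Rplp2, which pairs with Rplp1 on the stalk, averaged 475 ± 41.0 and 418 ± 60.3 FPKM in hearts and 231 ± 22.1 and 223 ± 10.7 FPKM in kidneys, while Rplp1 averaged 441 ± 42.0 and 407 ± 60.3 FPKM in hearts and 305 ± 22.8 and 282 ± 20.9 FPKM in kidneys (MaR1 before vehicle, SD, n = 5). The order of the partners thus differed, with Rplp1 above Rplp2 in the kidneys by mean level and close to it in the hearts.

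Rpsa, the small-subunit protein also known as the laminin receptor, was higher by 0.45 ± 0.07 in MaR1 rats (adjusted p = 1.13e-04) and 0.32 ± 0.08 in vehicle rats (adjusted p = 0.00406) and turned to -0.17 and -0.33 with TPM. Ribosomal proteins whose symbols fall outside the rule gave similar values. Rack1, a scaffold on the small subunit, was higher in hearts by 0.46 ± 0.07 in MaR1 rats (adjusted p = 1.02e-04) and 0.33 ± 0.07 in vehicle rats (adjusted p = 9.70e-04), and gave -0.16 and -0.32 with TPM. Fau, made as a fusion with a ubiquitin-like protein, gave 0.32 ± 0.07 (adjusted p = 0.00167) and 0.24 ± 0.10 (adjusted p = 0.0545), and -0.30 and -0.42 with TPM.

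**Figure D3:**
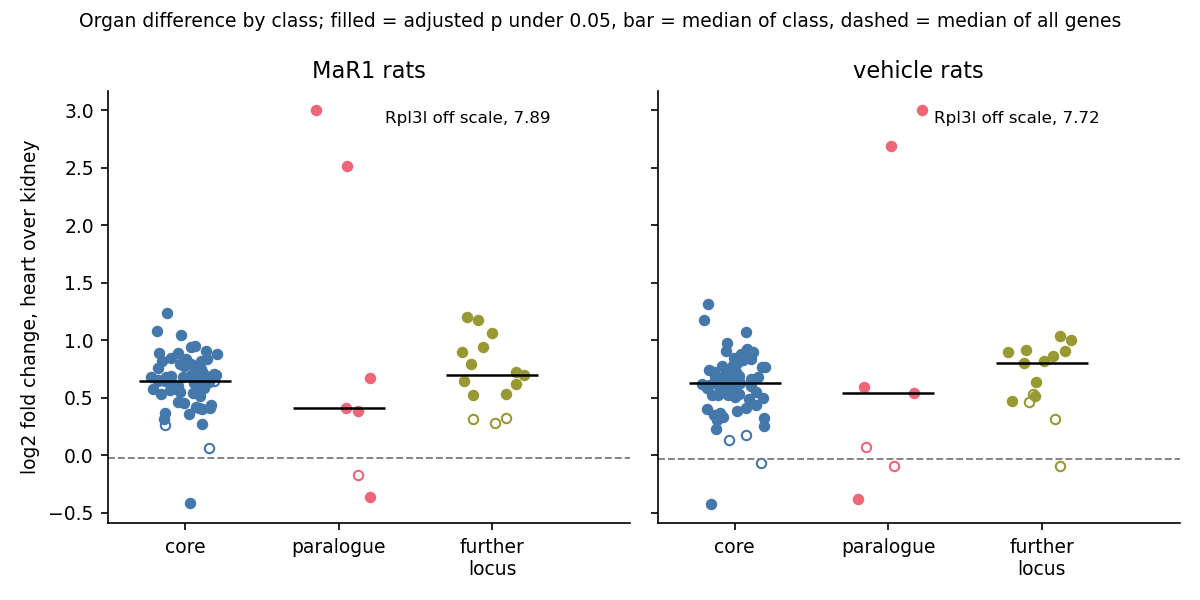
Log2 fold change, heart over kidney, of each tested member by class in MaR1 rats (left) and vehicle rats (right) on the deposited scale, with filled points for an adjusted p under 0.05, a bar at the median of the class and a dashed line at the median of all genes. Core genes crowd around 0.64 in MaR1 rats and 0.62 in vehicle rats, Rpl3 lies at -0.42 in both, and Rpl3l at 7.89 and 7.72 is drawn at the upper edge. With TPM these core medians were 0.03 and -0.02 and the dashed lines -0.61 and -0.65.

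Without the rats that gave the hearts with high Myl7, which left 3 MaR1 rats and 2 vehicle rats, 61 core genes were called higher and 1 lower in MaR1 rats with a median of 0.64, and 48 higher and 1 lower in vehicle rats with a median of 0.68. These medians, on the deposited scale, lie close to the 0.64 and 0.62 of all rats, and the number of rats left is small.

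Of the 27 further loci, 7 had a mean of at least 10 FPKM over the 20 libraries, 8 lay between 1 and 10 FPKM and 12 below 1 FPKM. Of the 15 that passed the filter, 12 were called higher in hearts in MaR1 rats and 11 in vehicle rats on the deposited scale, with 10 called in both and 0 called lower, and with TPM 10 of the 15 stayed above 0 in each set of rats. Per length, a few of them stood above the locus counted here as core. Rpl12 on chromosome X, without an intron, averaged 208 ± 13.7 and 179 ± 14.3 FPKM in hearts of MaR1 and vehicle rats and 132.5 ± 9.02 and 128 ± 10.3 FPKM in their kidneys, while Rpl12 on chromosome 3 averaged 143 ± 13.1 and 137 ± 20.2 FPKM in hearts and 88.5 ± 4.01 and 88.5 ± 7.63 FPKM in kidneys (SD, n = 5). Likewise Rpl21 on chromosome 13 averaged 123 ± 7.83 and 125 ± 20.5 FPKM in hearts and 85.1 ± 3.46 and 80.4 ± 10.03 FPKM in kidneys, against 36.1 ± 4.46 and 37.6 ± 3.49 FPKM and 27.3 ± 3.82 and 25.2 ± 1.36 FPKM at the core locus on chromosome 12. In fragments not divided by length the order was the other way in all 20 libraries, with 1158 to 2792 at Rpl12 on chromosome X against 2045 to 4781 on chromosome 3, and 978 to 1902 at Rpl21 on chromosome 13 against 1443 to 3341 on chromosome 12. Rps4x, the X-linked small-subunit gene, kept the larger part at its own locus, with 459 ± 48.7 and 449 ± 33.3 FPKM in hearts and 254 ± 13.4 and 241 ± 16.2 FPKM in kidneys, against 116 ± 7.55 and 114 ± 11.1 FPKM and 61.9 ± 3.50 and 55.2 ± 2.96 FPKM at the copy on chromosome 4. Rps4x gave log2 fold changes of 0.85 ± 0.09 in MaR1 rats and 0.90 ± 0.08 in vehicle rats, and Rpl36a, another X-linked gene, 0.79 ± 0.09 and 0.80 ± 0.09.

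Fragments of a spliced messenger RNA can also fit a copy without an intron where the sequences are alike, and how alike they are was not measured here. No source used here tells how such fragments were assigned, so levels of further loci and of their core namesakes are uncertain as separate genes. Rpl30 and Rpl37 had only loci without an intron among the members and so have no core locus here. In the kidney of vehicle rat RB031, Rpl39 on chromosome 18 had 18.1 FPKM and Rps29 on chromosome 13 had 28.9 FPKM, where the other 9 kidneys had at most 1.99 and 3.50 FPKM.

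The treatment comparison asked whether MaR1 moved the set within an organ. In the kidney 0 of 88 members tested were called, as were 0% of all 12446 genes tested. At an unadjusted p under 0.05 limma gave 3 members higher (Rps4x on chromosome 4, Rpl36a on chromosome 10 and Rps24) and 0 lower, where 3.28% of all genes were higher and 3.47% lower, and voom on fragments gave 2 members. The count was 7 with median-of-ratios scaling, 8 with TPM without mitochondrial genes and 9 with quantile scaling. It was 16 without RB031, 1 without RB032 or RB038 and 0 without RB033, RB034, RB035 or RB039. Rps24 averaged 65.5 ± 3.31 FPKM in kidneys of MaR1 rats and 59.0 ± 2.97 FPKM in kidneys of vehicle rats, a log2 fold change of 0.15 ± 0.06 (adjusted p = 0.721). Its values overlapped between the groups, as did those of every member in this organ, where 0.723% of all genes lay apart in the higher and 0.506% in the lower direction.

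The next core genes by p in the kidney were Rpl26, Rps12, Rpl14, Rps25 and Rps6, the last a target of S6 kinase, with log2 fold changes of 0.17 ± 0.08, 0.18 ± 0.09, 0.15 ± 0.07, 0.16 ± 0.08 and 0.15 ± 0.08 and adjusted p-values of 0.753 to 0.757. Without passing the test, 62 of the 67 core genes had a log2 fold change above 0, with a median of 0.07 against 0.00 over all genes, of which 50% were above 0. Core genes share their libraries, so signs are not independent. Library by library, the median deviation of the core genes from the kidney mean was 0.07, 0.00, 0.00, 0.05 and 0.07 in MaR1 rats RB035 to RB039 and -0.13, 0.12, 0.01, -0.12 and -0.04 in vehicle rats RB030 to RB034. The groups overlapped, and the vehicle kidney of RB031 was the highest of all 10. Without the 4 kidneys with Upk1a above 1 FPKM, 55 of 67 core genes were above 0 with a median of 0.07.

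In the heart 0 of 89 members were called, and 0% of all 12237 genes. At an unadjusted p under 0.05, 10 members were higher and 1 lower, where 3.07% of all genes were higher and 1.53% lower. This count of 11 was 1 with TPM and 5 with quantile scaling. It was 3 without RB032, RB036 or RB038, 4 without RB034, 7 without RB031, 17 without RB030 and 19 without RB039. The smallest p among core genes belonged to Rps2, Rpl17, Rps18, Rpl14, Rps27a and Rpl13. Rps2, a small-subunit protein at the entry of the mRNA channel, had 447, 464, 442, 419 and 385 FPKM in hearts of MaR1 rats and 446, 325, 329, 344 and 326 FPKM in hearts of vehicle rats. All MaR1 hearts lay above 4 of the 5 vehicle hearts, and RB030 lay among them. Rps2 gave 0.29 ± 0.11 on the log2 scale (adjusted p = 1.00). Rpl17, Rps18, Rpl14 and Rpl13 gave 0.27 ± 0.10, 0.23 ± 0.09, 0.18 ± 0.07 and 0.19 ± 0.08, each with an adjusted p of 1.00.

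Among paralogues in the heart, Rps18l1 had 77.5, 90.1, 78.9, 82.0 and 62.7 FPKM with MaR1 and 70.7, 57.8, 57.3, 66.3 and 58.4 FPKM with vehicle, a log2 fold change of 0.33 ± 0.10 (adjusted p = 0.998). Rps10l1 had 115, 128, 113, 123 and 110.4 FPKM with MaR1 and 109.6, 109.9, 99.3, 97.9 and 101 FPKM with vehicle, a log2 fold change of 0.18 ± 0.07 (adjusted p = 1.00). Rps10l1 was the one member whose groups did not overlap, a separation that 0.58% of all genes showed in this direction, and by a small margin. Rpl3l gave 0.18 ± 0.30 and Rpl3 0.05 ± 0.19, with 95% intervals from -0.49 to 0.85 and from -0.37 to 0.47, which hold differences of either sign. Rpl7l1, Rps27l and Rpl22l1 gave 0.00 ± 0.07, -0.06 ± 0.13 and 0.01 ± 0.08.

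Rps27a, made as a fusion of ubiquitin and a small-subunit protein, was the one member lower at an unadjusted p under 0.05. It had 209, 286, 192, 104 and 128 FPKM in hearts of MaR1 rats and 317, 219.9, 259, 253 and 259.6 FPKM in hearts of vehicle rats. The MaR1 hearts were widely spread, and RB036 lay above 4 vehicle hearts. The log2 fold change was -0.59 ± 0.24 (adjusted p = 1.00), and it was -0.58 without the hearts with high Myl7. In kidneys it had 115, 125, 105, 62.9 and 171 FPKM with MaR1 and 78.0, 115, 64.5, 145 and 148 FPKM with vehicle, a log2 fold change of 0.08 ± 0.29 (adjusted p = 0.987). Its standard error was the largest of the 67 core genes in both organs. Heart against kidney, it was 0.64 ± 0.30 in MaR1 rats (adjusted p = 0.0723) and 1.31 ± 0.22 in vehicle rats (adjusted p = 1.59e-04), and the difference between those sets was -0.67 ± 0.40 (adjusted p = 0.959).

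Over the core genes of the heart, 62 of 67 had a log2 fold change above 0, with a median of 0.11, where 54.2% of all genes were above 0. The median deviation of the core genes was 0.14, 0.15, -0.01, 0.08 and -0.10 in hearts of MaR1 rats RB035 to RB039 and 0.07, -0.08, -0.12, 0.00 and -0.12 in hearts of vehicle rats RB030 to RB034. The groups overlapped, with the MaR1 heart of RB039 among the lowest and the vehicle heart of RB030 among the highest. Without the hearts with high Myl7 the count above 0 was 45 of 67 and the median 0.04, and 2 core genes were left at an unadjusted p under 0.05.

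**Figure D4:**
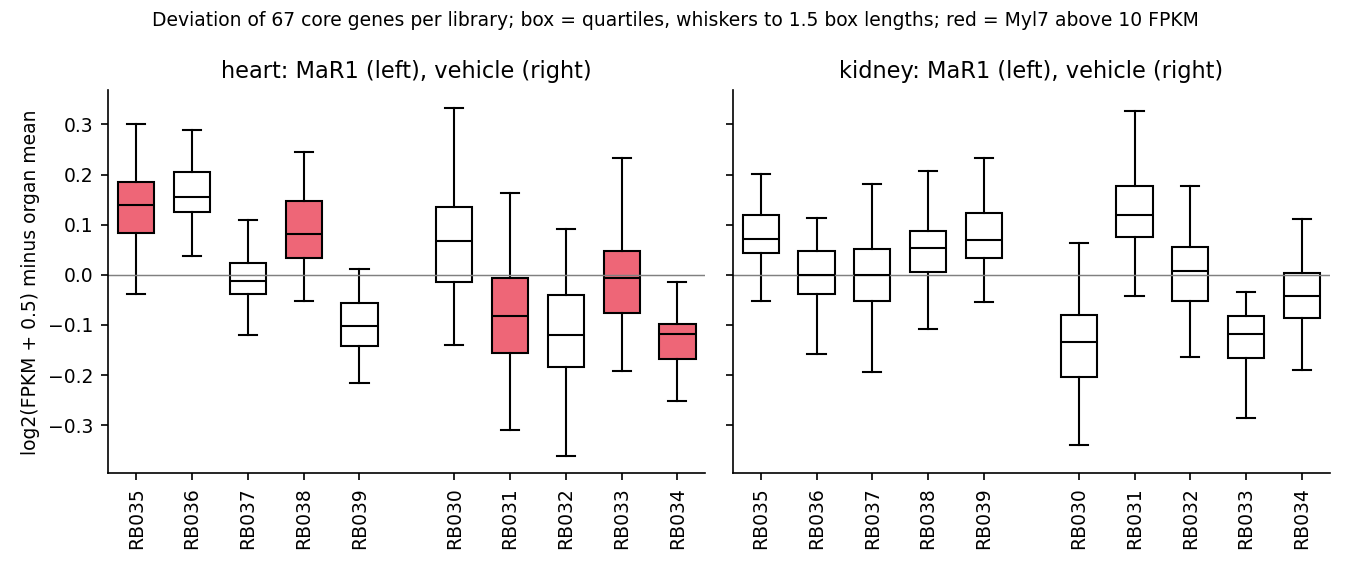
Deviation of the 67 core genes from their organ mean, in log2(FPKM + 0.5), as a box of quartiles for each heart (left panel) and kidney (right panel), with MaR1 rats left of vehicle rats in each panel and hearts with Myl7 above 10 FPKM in red. Medians run from -0.10 to 0.15 in MaR1 hearts and from -0.12 to 0.07 in vehicle hearts, and from 0.00 to 0.07 in MaR1 kidneys and from -0.13 to 0.12 in vehicle kidneys.

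The difference of the responses, heart minus kidney, was tested in a model of all 20 libraries. It called 0 of 89 members and 0% of all 12984 genes. At an unadjusted p under 0.05 it gave 1 member, Rps18l1, with a difference of 0.31 ± 0.15 (adjusted p = 0.903), where 3.28% of all genes were higher and 2.22% lower, and this count ran from 0 to 6 with 1 rat left out, the most without RB030. The core median was 0.03 with 46 of 67 above 0, against 53% of all genes. Without the hearts with high Myl7 the median was -0.03 and 27 of 67 were above 0, and it also turned to -0.01 without rat RB031 and to -0.02 with quantile scaling, so the sign of this small value is not settled.

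**Figure D5:**
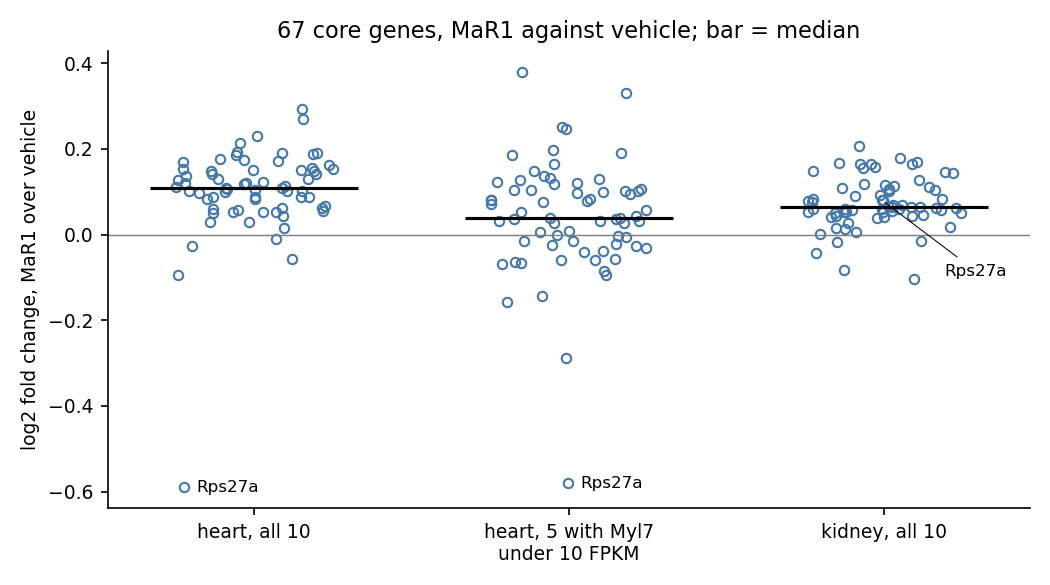
Log2 fold change, MaR1 over vehicle, of each of the 67 core genes in the 10 hearts, in the 5 hearts with Myl7 under 10 FPKM and in the 10 kidneys, with a bar at the median. The medians are 0.11, 0.04 and 0.07, no gene passed an adjusted p of 0.05, and Rps27a at -0.59 in the heart and 0.08 in the kidney lies apart from the other core genes of the heart.

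Other genes of the same pathway were compared between the organs as lists. Of all genes tested, 37.9% were called higher and 40.3% lower in hearts of MaR1 rats, and 37% higher and 40% lower in vehicle rats. Of 44 tested genes that build ribosomes, 8 were called higher and 28 lower in hearts of MaR1 rats (median -0.24) and 7 higher and 24 lower in vehicle rats (median -0.28), opposite in sign to the core ribosomal proteins on the same scale. With TPM the list's medians were -0.85 and -0.92. Utp18, a part of the complex that processes the small-subunit RNA, averaged 3.51 ± 0.62 and 3.70 ± 0.40 FPKM in hearts of MaR1 and vehicle rats against 12.0 ± 1.52 and 13.1 ± 0.54 FPKM in their kidneys, with log2 fold changes of -1.65 ± 0.12 (adjusted p = 1.73e-07) and -1.70 ± 0.08 (adjusted p = 1.15e-09). Eif6, which keeps new large subunits from joining too early, averaged 23.0 ± 1.96 and 21.4 ± 1.64 FPKM in hearts and 50.2 ± 1.75 and 50.9 ± 3.67 FPKM in kidneys, a log2 fold change of -1.11 ± 0.07 and -1.23 ± 0.08. Efl1 and Sbds, which together release Eif6 from the subunit, gave -0.74 ± 0.07 and -0.66 ± 0.06 in MaR1 rats and -0.74 ± 0.08 and -0.55 ± 0.11 in vehicle rats. These 3 genes were thus lower in hearts in both sets of rats, as were most genes tested in this list. Sbds was picked once its values were known.

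Among elongation factors and other genes with TOP messages, 12 of 23 were called higher and 5 lower in hearts of MaR1 rats (median 0.20), and 10 higher and 6 lower in vehicle rats (median 0.17), and with TPM the medians turned to -0.42 and -0.48. The shares of all genes were 37.9 and 37% higher and 40.3 and 40% lower in MaR1 and vehicle rats. Eef1a2, the form of elongation factor 1A of muscle and neurons, averaged 119 ± 32.0 and 109.6 ± 18.5 FPKM in hearts of MaR1 and vehicle rats against 0.0699 and 0.0705 FPKM in their kidneys, near 0 in kidneys as Rpl3l was, with log2 fold changes of 7.67 ± 0.17 and 7.58 ± 0.11. The common form Eef1a1 is listed at 0 to 0.289 FPKM in every library, far below the level it is known for in most tissues, so the forms cannot be compared here. Tpt1, a TOP message, averaged 1030 ± 70.1 and 949 ± 70.1 FPKM in hearts and 581 ± 17.6 and 553 ± 43.0 FPKM in kidneys, with log2 fold changes of 0.82 ± 0.07 and 0.78 ± 0.09, and Eef1g gave 1.01 ± 0.06 and 0.93 ± 0.09. These values lie within the range of the core ribosomal proteins and stayed above 0 with TPM.

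Of 15 RNA polymerase I genes, 5 were called higher and 3 lower in MaR1 rats and 2 higher and 4 lower in vehicle rats, with Polr1f at -0.86 ± 0.10 and -0.75 ± 0.07 and list medians of -0.04 and -0.10 (-0.65 and -0.70 with TPM). Of 24 genes of the mTOR pathway, 8 were higher and 8 lower in MaR1 rats and 8 higher and 9 lower in vehicle rats, with medians of -0.01 and -0.02 (-0.59 and -0.65 with TPM). In both lists calls in either direction were no more common than among all genes tested. Of those, 37.9% were called higher and 40.3% lower in MaR1 rats, and 37% and 40% in vehicle rats. Eif4ebp1, the translation repressor that mTOR inactivates, was higher in hearts by 2.47 ± 0.16 and 2.54 ± 0.12, Eef2k, the kinase that slows elongation, by 1.90 ± 0.08 and 1.97 ± 0.07, and Sesn2, an inhibitor of mTOR, gave -2.44 ± 0.17 and -2.91 ± 0.11. For scale, 63 of 66 oxidative phosphorylation subunits were higher in hearts in each set of rats with medians of 1.45 and 1.46 (0.85 and 0.82 with TPM), and 21 and 19 of 31 proteasome subunits with medians of 0.24 and 0.29 (-0.38 and -0.36 with TPM).

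With MaR1, 0 genes of these lists were called in either organ. Eef2k had the smallest p, with 3.91 ± 0.49 FPKM in kidneys of MaR1 rats and 3.04 ± 0.27 FPKM in kidneys of vehicle rats (0.31 ± 0.09, adjusted p = 0.604), and 15.9 ± 0.81 FPKM in hearts of MaR1 rats and 13.4 ± 0.62 FPKM in hearts of vehicle rats (0.24 ± 0.06, adjusted p = 0.877). Its groups did not overlap in either organ, which in that direction held for 0.723% of all genes in the kidney and 0.58% in the heart. Eef2, the elongation factor that Eef2k phosphorylates, gave 0.19 ± 0.08 in the heart and 0.01 ± 0.09 in the kidney, with adjusted p-values of 1.00 and 0.993.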

How the data were processed

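Messenger RNA was enriched with poly-T beads and sequenced from 20 libraries, and whether they were stranded is not stated. The submitters' processing notes name fastp, HISAT2 2.0.5, StringTie 1.3.3b and featureCounts 1.5.0-p3 among the tools, with no genome build. The deposited FPKM values were scaled by the authors and were used as they stand. Multiplied by gene length and by a library size read from the steps between low values, 100% of 371175 values above 0 were whole numbers of fragments to within 0.01, which supplied the fragment totals and a test with limma voom as an alternative. The voom test used the same library sizes and so keeps the authors' scaling. No 2 libraries agreed within sampling noise, since chi-square per degree of freedom was 9.57 or more in each of 190 pairs.

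Genes that averaged 1 FPKM or more in the libraries fitted were tested as log2(FPKM + 0.5) with limma 3.58.1 in R 4.3.3 (variance trend, two-sided, Benjamini-Hochberg over all genes tested, threshold 0.05). The fits were also checked on simulated tables that held known changes. TPM means FPKM rescaled to the same total in each library.

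Kidney and heart of a rat come from the same animal, so a fit with the animal as block was made with statmod 1.5.0. Other alternatives were pseudocounts of 0.1 and 1, no filter or a mean of at least 5 FPKM, TPM with and without mitochondrial genes, median-of-ratios and quantile scaling, voom, a robust prior, each rat left out, and the hearts with Myl7 above 10 FPKM or the kidneys with Upk1a above 1 FPKM left out. After removal of group means, same-animal libraries correlated between -0.0170 and 0.139 over 12984 genes, and 2 of 10 pairs were above 0.1. Named genes are the paralogues with their partners, the stalk genes with Rpsa, Rps4x and Rpl36a, the core genes at the ends of the organ contrast, of smallest p in a treatment contrast or at the ends of the level range, and the 3 genes of smallest p in each pathway list, of which some are given. A gene that this rule names is not reported here. Rpl12, Rpl21, Rpl39 and Rps29 loci, Sbds, Tpt1, Sesn2 and Eef2 were added to the named genes once values were known, and the hearts and kidneys set aside were chosen likewise. The members, lists and alternatives were chosen with earlier results of these data known. Of 277 list symbols, 262 matched the table. Tables were joined in Python 3.11.15 and plotted with matplotlib 3.10.9.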

Additional observations from a re-analysis of the deposited data

Results flagged for a closer look

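Among 202 sets of 5 values, 12 held a library whose gap to the others was too large a part of the range by Dixon's test, where chance gives about 1 in 20. The vehicle heart of RB030 was the highest of its group 4 times, with 920.7 FPKM of Rplp0 (others 698.6 to 759.4), 522.1 FPKM of Rplp2 (372.3 to 415.3), 292.2 FPKM of Rps12 (210.3 to 221.7) and 445.7 FPKM of Rps2 (325.1 to 344.1). The vehicle heart of RB033 was lowest for Rpl10l, at 6.435 FPKM (8.811 to 9.336), and highest for Rpl39, at 106.8 FPKM (84.93 to 90.67), and that of RB031 was lowest for Rpl29, at 204.7 FPKM (251.4 to 259.5). In the kidneys of MaR1 rats, RB037 was highest for Rpl3l, at 0.1231 FPKM or 6 fragments (0 to 0.01882), and lowest for Rpl7l1, at 29.2 FPKM (32.77 to 34.09), and RB036 was highest for Rpl39l, at 1.024 FPKM or 53 fragments (0 to 0.05942). In the kidneys of vehicle rats, RB031 was highest for Rpl22, at 19.02 FPKM (16.89 to 17.22), and RB032 for Rps2, at 305.9 FPKM (221.1 to 239.4).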

How the results depend on the processing

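With TPM, members called higher and lower in hearts were 13 and 9 in MaR1 rats and 9 and 14 in vehicle rats, core genes above 0 were 42 and 32, and the core medians 0.03307 and -0.018. TPM reversed, in MaR1 rats, Rps18l1 (-0.2355), Rpl22l1 (-0.2042), Rpl22 (-0.02709), Rplp1 (-0.0923), Rpsa (-0.1669), Rps18 (-0.3072), Rpl36a on chromosome 10 (-0.07545), Rpl18 (-0.5564), Rpl29 (-0.361), Rpl5 (-0.3472), Rpl27 (-0.2681), Rpl14 (-0.1884), Rpl13 (-0.04822), Rps20 (-0.0847) and Rpl21 (-0.2134). In vehicle rats it reversed Rps10l1 (-0.05977), Rps18l1 (-0.5802), Rpl22l1 (-0.1023), Rpl22 (-0.09324), Rplp0 (-0.05172), Rplp1 (-0.1278), Rpsa (-0.3298), Rps18 (-0.5158), Rpl29 (-0.4773), Rpl5 (-0.4276), Rpl27 (-0.3953), Rps12 (-0.03886), Rpl14 (-0.2478), Rps2 (-0.128), Rpl13 (-0.2188), Rps15 (-0.002906), Rps20 (-0.2859) and Rpl21 (-0.07696). TPM without mitochondrial genes gave core medians of 0.4893 and 0.4923 and reversed Rpl18 in MaR1 rats (-0.1012) and Rps18l1 (-0.07215) and Rps18 (-0.006749) in vehicle rats. Quantile scaling gave core medians of 0.3683 and 0.3792 and reversed Rpl18 (-0.08626), Rpl29 (-0.1069), Rpl27 (-0.1707) and Rps20 (-0.04891) in MaR1 rats and Rpsa (-0.05472), Rpl29 (-0.1137), Rpl27 (-0.2073) and Rps20 (-0.1496) in vehicle rats. The ratio of the summed core level, heart over kidney, was 1.018 in MaR1 rats and 0.9716 in vehicle rats with TPM, and 1.388 in MaR1 rats with TPM without mitochondrial genes. Without the hearts with high Myl7, the reversed values were Rpl18 in the organ contrast of vehicle rats (0.0594), Rps24 (-0.0409), Rps12 (-0.06855) and Rps6 (-0.01465) for MaR1 in the heart, and Rps12 for the difference of responses (-0.2469), and the cause was not tested.

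Fragments not divided by length gave other pair shares since they hold the partners' lengths: 3.67 and 3.474% for Rpl10l in hearts of MaR1 and vehicle rats, 37.57 and 39.08% in hearts and 40.49 and 39.24% in kidneys for Rpl22l1, and 16.26 and 18.52% in hearts and 28.9 and 29.12% in kidneys for Rps27l. Leaving out 1 rat at a time gave 1 to 2 members called lower in MaR1 rats, 80 to 83 called higher in MaR1 rats and 73 to 81 in vehicle rats. With the animal as replicate block, 83 members were called higher and 2 lower in MaR1 rats and 78 higher and 2 lower in vehicle rats, against 80 and 78 higher without it, and in MaR1 rats Rpl29 (adjusted p = 0.0344) and Rps27a (0.0290) gained a call, the only changes among the genes named by the rule. Of the values for single genes under an alternative, 2170 kept direction and side of the threshold, 75 lost a call, 10 gained one and 49 reversed. Counting error is small for core genes other than Rpl35a, which had only 21 to 85 fragments per library. It is large for Rpl3l, Rpl10l and Rpl39l in kidneys, where their fragments ran from 0 to 199.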
